A study of Mus musculus with 63 samples.

Results

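Macrophages (Macs) from kidneys obstructed for 2 days were compared with Macs from sham-operated kidneys by small RNA sequencing (sRNA-Seq). All 4 Mac sham libraries and all 4 Mac UUO-2 libraries were used, which is 8 of the 63 libraries of the sorted-cell data set, and all 2110 counted miRNA loci entered the analysis, of which 457 (434 mature names) were abundant enough to test. The study followed reversible unilateral ureteric obstruction (R-UUO), in which the ureter of 1 kidney is tied and later reimplanted into the bladder, in C57BL/6 mice that were male and 8 to 12 weeks old according to the methods. Sham mice had surgery without obstruction, UUO-2 mice were culled after 2 days and UUO-7 mice after 7 days of obstruction, and R-UUO mice after obstruction followed by reversal. Macs were sorted from digested kidney cortex as F4/80hi cells of the CD45+ (leukocyte) fraction, beside CD31+ endothelial cells (ECs), LTL+ proximal tubular (PT) cells and PDGFR-β+ stromal cells. Each group had 5 mice, and the 4 with the most average expression of the tubular injury gene Havcr1 were sequenced, so the spread between libraries is the spread between mice chosen to be alike. No transgene, Cre or marrow transfer was used, and the gate does not tell cells that lived in the kidney before surgery from cells that entered it afterwards.

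A miRNA is cut from a hairpin precursor whose arms, 5p and 3p, can each be loaded into an Argonaute protein, although usually the more stable arm persists and the other is degraded. The loaded strand finds its target mRNAs by pairing through the seed, bases 2 to 8, so that miRNAs with the same seed share most predicted targets, and miRNAs encoded close together are often made from a single transcript. In macrophages several miRNAs are induced by toll-like receptors and NF-kB, among them miR-155, miR-146a, miR-147, miR-132 and miR-21, while miR-223 and miR-142 mark the myeloid and haematopoietic lineages.

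The mature sequences below are those on which the results turn. They are RefSeq entries for mouse assembly GRCm38.p6, found at the position of the counted locus for 399 of the 457 loci tested, written 5′ to 3′ with the seed in capitals. The first 4 are shown because the members of each pair share a seed and a transcript and were all higher at UUO-2.
miR-132-3p: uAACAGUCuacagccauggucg
miR-212-3p: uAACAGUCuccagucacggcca
miR-221-3p: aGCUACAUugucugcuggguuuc
miR-222-3p: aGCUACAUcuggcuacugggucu
The next sets are shown because members with an identical seed differed in their change: miR-130b-3p and miR-301a-3p were higher and miR-130a-3p was not called, and of the miR-148 family 1 member was higher, 1 lower and 1 not called.
miR-130b-3p: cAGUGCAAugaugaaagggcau
miR-301a-3p: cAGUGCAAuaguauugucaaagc
miR-130a-3p: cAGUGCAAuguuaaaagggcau
miR-148a-3p: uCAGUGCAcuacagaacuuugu
miR-148b-3p: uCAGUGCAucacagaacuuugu
miR-152-3p: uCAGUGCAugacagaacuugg
The miR-125 and let-7 members below are shown because the lower ones, miR-125a-5p, miR-125b-5p, let-7e-5p and let-7c-5p, have the same seeds as miR-351-5p and let-7i-5p, which were higher.
miR-125a-5p: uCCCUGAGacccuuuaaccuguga
miR-125b-5p (chr9): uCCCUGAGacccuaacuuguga
miR-351-5p: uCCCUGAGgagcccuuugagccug
let-7e-5p: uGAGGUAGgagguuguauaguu
let-7c-5p (chr16): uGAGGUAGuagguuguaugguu
let-7f-5p (chrX): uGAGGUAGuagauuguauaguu
let-7i-5p: uGAGGUAGuaguuugugcuguu
The last set holds abundant miRNAs that moved by about 1 on the log2 scale, with the other arm of the miR-21a hairpin and the paralog of miR-27b that did not pass the test.
miR-21a-5p: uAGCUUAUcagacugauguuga
miR-21a-3p: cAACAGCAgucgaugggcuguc
miR-27b-3p: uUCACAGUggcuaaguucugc
miR-27a-3p: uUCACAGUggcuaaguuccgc
miR-146a-5p: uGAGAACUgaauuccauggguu
miR-26a-5p (chr10): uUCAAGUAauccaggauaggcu

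Total counts ranged from 2105184 to 6095639 in the sham libraries and from 2827701 to 4600933 at UUO-2, so that 3 counts correspond to 0.508 to 1.41 CPM (library counts scaled to a common total) in sham and 0.583 to 0.989 CPM at UUO-2, an allowance for counting error only. The 10 most abundant loci held 57.9% to 60.1% of the counts of each library. The UUO-2 libraries were alike, with pairwise distances (root mean square difference in log2 CPM) of 0.427 to 0.567, whereas the sham libraries lay 0.723 to 1.01 from each other and 0.952 to 1.32 from the UUO-2 libraries. The shallowest library, sham 2, stood apart from the other sham libraries on the second principal component, and the counts of calls in each of the 3 tests, and of several lists, are given with and without it. More loci had at least 1 count at UUO-2 (797 to 863) than in sham (580 to 760), and this remained when all libraries were brought to the depth of sham 2, with 734 to 772 against 571 to 663 expected loci (exact permutation test, two-sided, p = 0.0286, the smallest that 4 against 4 libraries allow).

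At UUO-2, 84 loci were higher and 42 lower than in sham, which is 18.4% and 9.19% of the 457 tested and 27.6% in all, while 149 (32.6%) passed on the adjusted p alone (edgeR quasi-likelihood test, Benjamini-Hochberg adjusted p below 0.05 and a fold change above 1.5, 4 mice per group). The 4 sham and 4 UUO-2 libraries did not overlap for 181 loci (39.6%), 106 of them higher (23.2%) and 75 lower (16.4%), and 116 of the 126 called loci were among these. The 10 largest increases and 10 largest decreases named below were taken from these 116, so their lack of overlap was set by that choice. The higher and the lower loci differed in size and in abundance. Of the higher loci, 55 exceeded a log2 fold change of 1 and 20 exceeded 2, and 36 had a sham mean below 10 CPM. Of the lower loci, 15 fell by more than 1 on the log2 scale and 1 by more than 2, and none had a sham mean below 10 CPM. Among the 68 loci above 1000 CPM in sham, 7 were higher and 14 lower.

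The balance of higher to lower calls depended on how the libraries were scaled. With the trimmed mean of M values (TMM) the median log2 fold change of all 457 loci was 0.15 and 66.7% of the calls were higher. This share was 80.6% of 144 calls (median 0.30) with library size alone, 60.8% of 125 (median 0.08) with relative log expression factors and 40.6% of 133 (median −0.10) with upper-quartile factors. It was 48.3% of 118 calls (57 higher and 61 lower, median −0.06) without sham 2. Without any of the other libraries in turn it was 44.9% to 60.7% (medians −0.07 to 0.08). No locus called with TMM changed direction under any of these settings. A log2 fold change below is therefore to be read against 0.15, and counts of higher and lower loci are those under TMM.

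**Figure D1:**
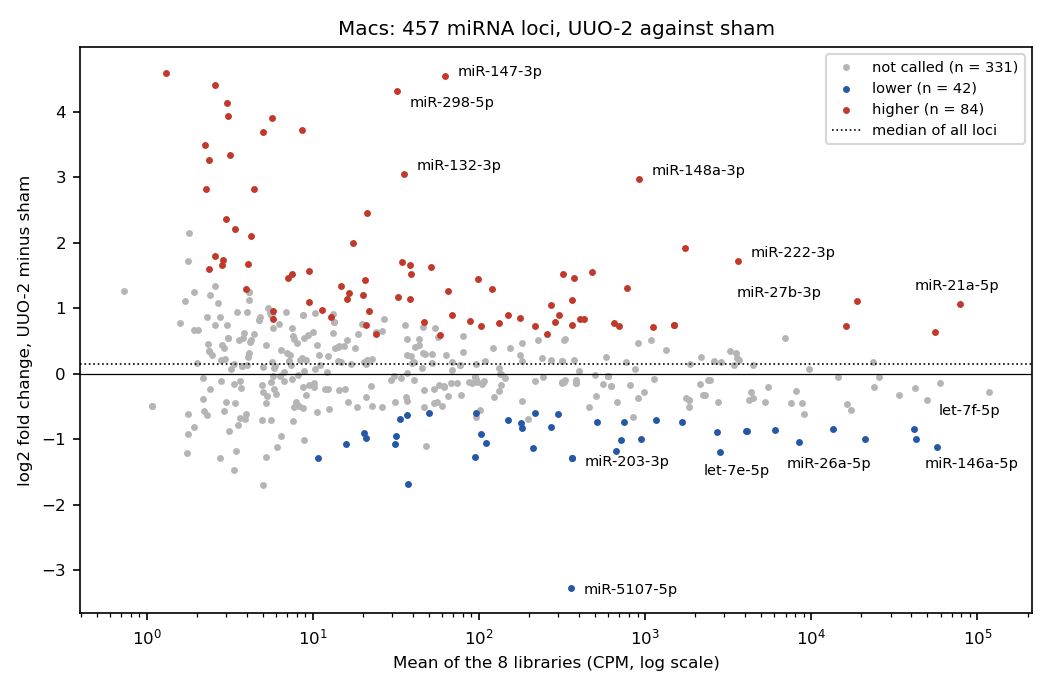
Log2 fold change of each of the 457 tested loci in Macs (y axis, UUO-2 minus sham) against its mean over the 8 libraries (x axis, CPM, log scale), with 84 higher loci in red, 42 lower in blue and the median of all loci (0.15) dotted. The larger increases lie at low and middle abundance, and no called decrease other than that of miR-5107-5p (−3.26) goes below the −1.68 of miR-5119.

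The largest increase among loci with at least 10 CPM was that of miR-147-3p, a miRNA induced by toll-like receptor signalling, which is encoded in an exon (UTR) of AA467197 at chr2:122640850-122640871 on the plus strand (GRCm38). Its level was 5.24, 6.09, 6.21 and 3.11 CPM in the sham libraries and 95.9, 119, 119 and 145 CPM in the UUO-2 libraries. Every UUO-2 library lay far above every sham library. The log2 fold change was 4.55 ± 0.29 (SE; 23.5-fold; edgeR, adjusted p = 5.92e-09), the smallest p of all loci, and under the 19 alternative settings the call held.

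The neighbours miR-132 and miR-212, whose transcription is known to be driven by the cAMP-responsive factor CREB, were higher on both arms. The level of miR-132-3p (chr11:75173723-75173744, plus strand) was 9.14, 4.22, 2.56 and 13.2 CPM in sham and 65.5, 52.4, 67.0 and 69.3 CPM at UUO-2, a log2 fold change of 3.05 ± 0.33 (adjusted p = 2.98e-06). That of miR-212-3p (chr11:75173443-75173464) was 1.18, 0.937, 0 and 2.33 CPM in sham and 15.5, 20.9, 16.3 and 11.9 CPM at UUO-2, a log2 fold change of 3.72 ± 0.47 (adjusted p = 1.55e-05). The groups did not overlap for either, and the sham level of miR-212-3p was near 3 counts per library, so its fold change rests on few sham reads. The passenger arms, miR-132-5p and miR-212-5p, had log2 fold changes of 3.27 and 3.93 and did not exceed 7.04 CPM in any of the 8 libraries.

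Other strong increases were found at low sham levels. The level of miR-298-5p, which lies beside miR-296 on chromosome 2, was 1.18, 10.8, 0 and 2.07 CPM in sham and 64.4, 44.7, 54.6 and 78.8 CPM at UUO-2 (log2 fold change 4.32 ± 0.59, adjusted p = 3.45e-05). Sham 2 was the highest of the sham libraries and still lay well below UUO-2. Its neighbour miR-296-3p had 1 read over the 4 sham libraries and 1.32 to 3.40 CPM at UUO-2 and was also called higher. The level of miR-6539, in an intron of Dock5, was 0 to 1.83 CPM in sham and 8.93 to 11.9 CPM at UUO-2 (3.90 ± 0.63), and that of miR-3473d, in an intron of Ddx19b, was 4.06 to 9.37 CPM against 21.9 to 36.3 CPM (1.99 ± 0.38).

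A further group of increases combined a large change with a high level. The level of miR-148a-3p (chr6:51269829-51269850, minus strand), known to target the DNA methyltransferase Dnmt1, was 304, 157, 204 and 161 CPM in sham and 1868, 1360, 1261 and 1997 CPM at UUO-2. The lowest UUO-2 library was above the highest sham library, and the log2 fold change was 2.97 ± 0.24 (7.84-fold, adjusted p = 9.98e-08). Its passenger arm miR-148a-5p was also called higher.

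All 4 arms of the X-linked pair miR-221 and miR-222, which are known to repress the cell cycle inhibitor p27, were higher at UUO-2. The level of miR-222-3p was 1504, 1934, 1564 and 1758 CPM in sham and 6507, 5886, 4133 and 5781 CPM at UUO-2 (log2 fold change 1.72 ± 0.15, adjusted p = 3.72e-07). That of miR-221-3p was 482, 452, 375 and 477 CPM in sham and 1247, 1108, 989.8 and 1103 CPM at UUO-2 (1.32 ± 0.13, adjusted p = 1.75e-06). The groups were well apart for both. The 4 arms together had a median log2 fold change of 1.29 and were called under every alternative setting, beside 18.4% higher over all loci in the main fit.

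The most abundant locus that rose was miR-21a-5p (chr11:86584120-86584141, minus strand), which is encoded in an exon (UTR) of Vmp1 and is widely induced in injured tissue. It had 54696, 49998, 54599 and 44766 CPM in sham and 111489, 105229, 94361 and 114163 CPM at UUO-2, a log2 fold change of 1.06 ± 0.18 (adjusted p = 2.08e-04). The other arm of the hairpin, miR-21a-3p, had 797, 647, 658 and 802 CPM in sham and 3184, 2773, 2471 and 2591 CPM at UUO-2, a log2 fold change of 1.92 ± 0.20 (adjusted p = 1.75e-06). Both arms were thus raised in all 4 UUO-2 libraries, and the less abundant arm by more.

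**Figure D2:**
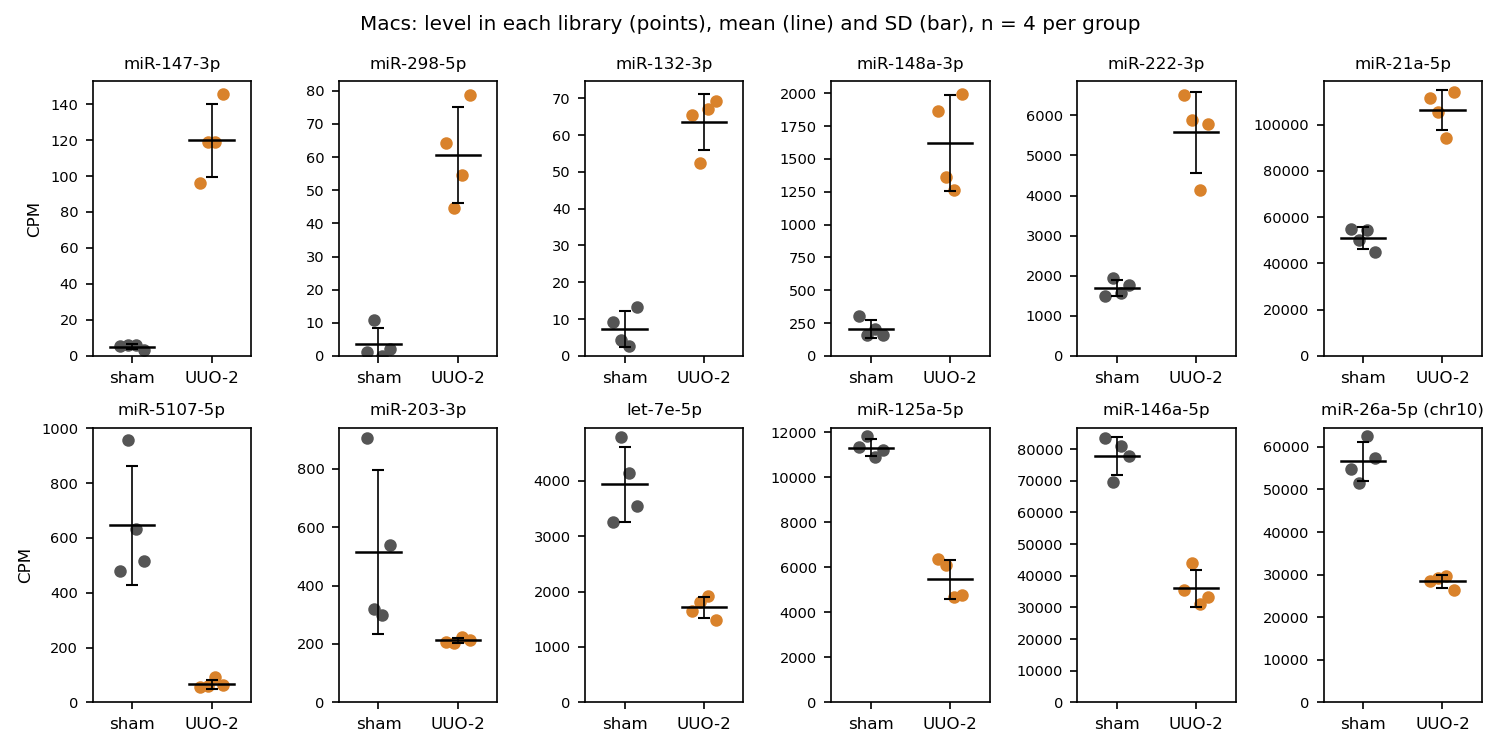
Level in CPM (y axis, linear, from 0) of 12 loci in each of the 4 sham and 4 UUO-2 Mac libraries (points), with the group mean (line) and SD (bar). The 6 loci of the upper panels are higher and the 6 of the lower panels lower in every UUO-2 library than in every sham library, narrowly so for miR-203-3p (202 to 225 CPM against 298 to 904 CPM).

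Of 39 genomic clusters with 2 or more hairpins tested (neighbours within 10000 bases on the same strand), 16 held no called locus, 11 held 1, 11 held 2 or more called in the same direction and 1 held calls in both directions. All loci tested were called in 5 clusters. Over all loci 27.6% were called, 18.4% higher and 9.19% lower. The clusters held from 2 to 11 tested loci, which include both arms of some hairpins. In the miR-130b/301b cluster on chromosome 16, in an intron of 2610318N02Rik, all 3 loci tested were higher. The level of miR-301b-3p was 9.47, 3.28, 5.48 and 7.00 CPM in sham and 30.6, 30.6, 36.5 and 46.5 CPM at UUO-2 (log2 fold change 2.45 ± 0.27), and miR-130b-3p had 169.9 to 273 CPM against 468 to 520.2 CPM (1.12 ± 0.16). The member of the same seed family on chromosome 11, miR-301a-3p, in an intron of Ska2, had 306, 209, 253 and 197 CPM in sham and 739, 606, 715 and 782 CPM at UUO-2 (1.56 ± 0.20, adjusted p = 1.55e-05). By contrast miR-130a-3p, on chromosome 2, had 149, 90.9, 172 and 130.4 CPM in sham and 141, 133, 118 and 149 CPM at UUO-2, with overlapping groups and a log2 fold change of −0.01 ± 0.17.

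The 2 clusters that encode miR-23, miR-27 and miR-24 differed in their calls, beside 18.4% higher and 9.19% lower over all loci. In the chromosome 13 cluster 3 of 5 loci were higher, and its most abundant member, miR-27b-3p, had 12672, 8656, 13051 and 13513 CPM in sham and 24303, 26590, 25844 and 26608 CPM at UUO-2 (log2 fold change 1.11 ± 0.16, adjusted p = 3.79e-05). The others were miR-27b-5p (1.66 ± 0.17) and miR-23b-3p (0.74 ± 0.15), of which the latter lost its call in 6 of 19 alternative settings. In the chromosome 8 cluster none of the 5 loci was called, with miR-27a-3p at 0.25 ± 0.20 and miR-23a-3p at −0.09 ± 0.13. The mature sequences of miR-27a-3p and miR-27b-3p are nearly the same, and how reads shared by both were placed is not known.

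Of 11 loci of the miR-17 to miR-92a cluster on chromosome 14, a growth-promoting polycistron hosted by Mir17hg, 6 were higher and none lower, beside 18.4% and 9.19% over all loci. The level of miR-17-5p was 223, 185, 222 and 222 CPM in sham and 413, 432, 358 and 384 CPM at UUO-2 (log2 fold change 0.90 ± 0.16, adjusted p = 2.98e-04). The other calls were miR-18a-5p (1.15), miR-18a-3p (0.89), miR-19a-3p (0.78), miR-20a-5p (0.85) and miR-92a-1-5p (1.29), while the most abundant product, miR-92a-3p, had 44334, 44747, 46616 and 45292 CPM in sham and 38780, 39620, 40428 and 36862 CPM at UUO-2 (−0.22 ± 0.12, adjusted p = 0.194). With the paralogous clusters, 9 of 20 loci were higher and none lower (median log2 fold change 0.48, against 0.15 over all loci), among them miR-25-5p and miR-106b-3p of the chromosome 5 cluster. Under the alternatives run for lists between 6 and 9 were higher, except for the stricter test against a fold of 1.5, with 5, and there were 6 without sham 2. Over the 19 settings the call of miR-19a-3p was lost in 9 and that of miR-20a-5p in 4, left-out libraries among them.

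In the chromosome 2 cluster within an intron of Sfmbt2, 139 loci were counted, 31 had a count in the 16 Mac libraries of all groups and 5 could be tested, of which 3 were higher (18.4% over all loci). These were miR-467c-5p (0 to 0.937 CPM against 4.88 to 7.58 CPM), a miR-669a-5p locus (4.47 to 7.91 CPM at UUO-2, log2 fold change 3.35 ± 0.54) and miR-466a-3p (0 to 2.07 CPM against 2.91 to 5.28 CPM), whose call was lost in 8 of 19 settings. Their sham levels lay at or near the allowance for 3 counts, and since these miRNAs occur as many near-identical copies the locus of origin is uncertain.

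**Figure D3:**
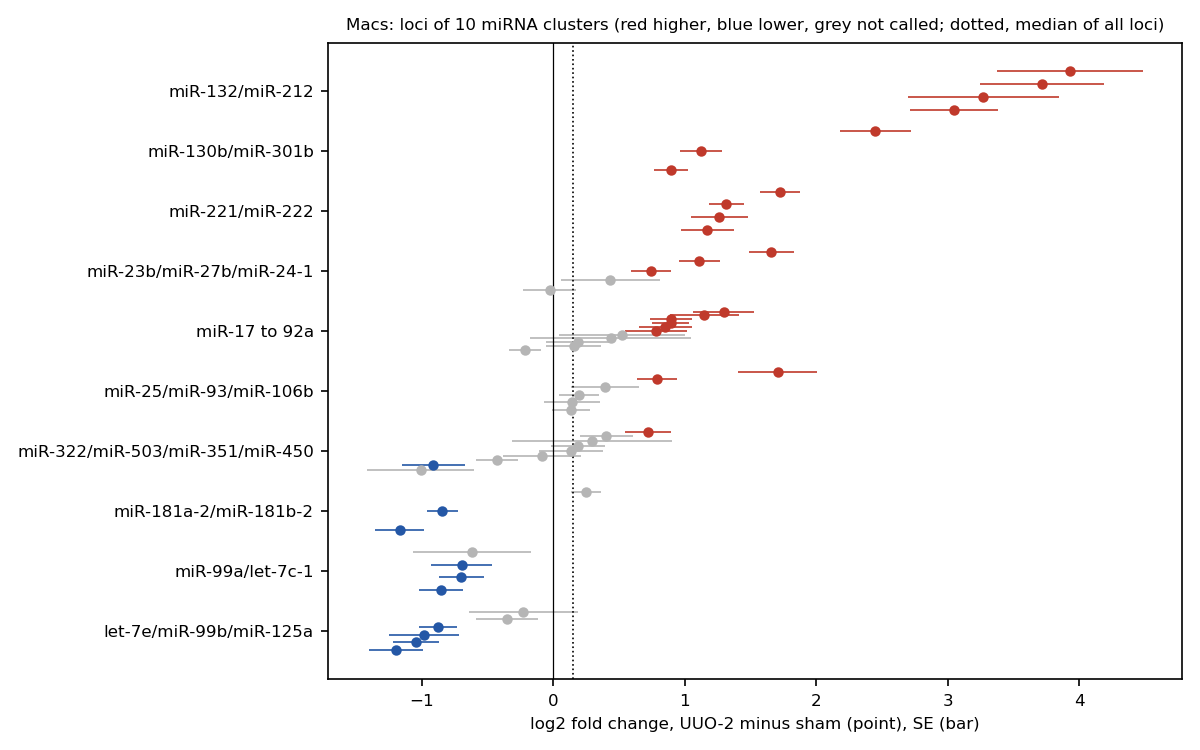
Log2 fold change, UUO-2 minus sham in Macs (x axis), with its SE (bar), of the tested loci of 10 genomic clusters (y axis), red for higher, blue for lower and grey for not called, with the median of all loci dotted. All loci of the miR-132/212, miR-130b/301b and miR-221/222 clusters lie to the right, and the 6 loci of the let-7e/99b/125a cluster to the left, 4 of them called.

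The largest decrease was that of miR-5107-5p, which lies in an intron of Cd74, the gene of the MHC class II invariant chain on chromosome 18, on the same strand. Its level was 478, 956, 632 and 517 CPM in sham and 55.9, 59.0, 91.5 and 62.0 CPM at UUO-2. The groups were far apart, with a log2 fold change of −3.26 ± 0.37 (adjusted p = 4.67e-06). The 3p arm of the same hairpin fell less, from 132 to 164 CPM in sham to 67.5 to 78.3 CPM at UUO-2 (−1.05 ± 0.15). The Cd74 transcript itself was not measured in these libraries.

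Several of the most abundant miRNAs of sham Macs were lower. The level of miR-146a-5p (chr11:43374435-43374456, minus strand), which restrains toll-like receptor signalling, was 83448, 69538, 80975 and 77691 CPM in sham and 35637, 44073, 31010 and 33199 CPM at UUO-2 (log2 fold change −1.11 ± 0.18, adjusted p = 1.58e-04). The groups did not overlap, and the call held in all 19 alternative settings. Its paralog miR-146b-5p had 2371 to 3611 CPM in sham and 3351 to 4324 CPM at UUO-2 and was not called (0.31 ± 0.14).

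The largest group of decreases was made up of miR-99, miR-100 and miR-125, of which 8 of 11 loci were lower and 1 higher (median log2 fold change −0.81), beside 9.19% and 18.4% over all loci. Without sham 2, 8 were lower and none higher. The chromosome 17 cluster in Spaca6 encodes miR-99b, let-7e and miR-125a, and 4 of its 6 loci were lower. The level of miR-125a-5p was 11327, 11826, 10905 and 11206 CPM in sham and 6355, 6093, 4701 and 4763 CPM at UUO-2 (−1.05 ± 0.18, adjusted p = 1.72e-04). That of let-7e-5p was 3255, 4784, 4146 and 3543 CPM in sham and 1641, 1812, 1912 and 1487 CPM at UUO-2 (−1.20 ± 0.20, adjusted p = 1.96e-04). For miR-99b-5p the range was 4440 to 6006 CPM in sham and 2263 to 3393 CPM at UUO-2 (−0.88 ± 0.14). No library of either group crossed over for these 3 loci.

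The related cluster on chromosome 16 was lower at 3 of 4 loci, beside 9.19% over all loci. Its miR-99a-5p was at −0.70 ± 0.17 and its let-7c-5p at −0.86 ± 0.17. Both loci of miR-125b-5p, on chromosomes 9 and 16, were lower as well, with 1205 to 1308 CPM against 545 to 694 CPM (−0.99 ± 0.14) and 903 to 998 CPM against 427 to 519 CPM (adjusted p = 2.62e-05). The same mature sequence is made from both, so these are not independent measurements. The remaining member, miR-100-5p, ranged from 18.6 to 101 CPM in sham and from 27.0 to 106 CPM at UUO-2 and was not called, and the single call in the other direction, miR-125b-1-3p (2.92 to 5.75 CPM against 6.22 to 8.74 CPM), was lost in 10 of 19 settings.

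Of the group of miR-26, miR-103 and miR-107, both loci of miR-26a-5p were lower and the other 6 were not called. Over all loci 9.19% were lower. The chromosome 10 locus, in an intron of Ctdsp2, had 54864, 51540, 62618 and 57296 CPM in sham and 28437, 29226, 29702 and 26279 CPM at UUO-2 (−0.99 ± 0.12, adjusted p = 1.24e-05), and the chromosome 9 locus has the same sequence and had 25306 to 30763 CPM against 12935 to 14596 CPM. The member with the same seed, miR-26b-5p, fell short of the fold threshold (9248 to 10660 CPM against 7068 to 7516 CPM, −0.45 ± 0.14).

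Members of the miR-181 family, which modulates antigen receptor signalling in lymphocytes, included calls in both directions. The level of miR-181a-5p at its chromosome 2 locus was 50910, 49183, 56984 and 56481 CPM in sham and 30104, 31336, 30303 and 27149 CPM at UUO-2 (−0.84 ± 0.12, adjusted p = 3.65e-05), and miR-181a-2-3p from the same hairpin had 895 to 952 CPM against 314 to 534 CPM (−1.17 ± 0.19). By contrast miR-181d-5p, with the same seed, had 42.2 to 81.9 CPM against 99.1 to 129 CPM (0.80 ± 0.19), a call that was lost in 5 of 19 settings. Of the 10 family loci, 3 were lower, 1 was higher and 6 were not called, beside 27.6% called over all loci.

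The other decreases among the 10 largest were found at lower levels. The level of miR-203-3p, best known from epithelial differentiation, was 904, 321, 298 and 540.1 CPM in sham and 207, 202, 225 and 214 CPM at UUO-2 (−1.28 ± 0.29, adjusted p = 0.00228). The sham libraries were spread widely, and miR-203b-5p, annotated on the opposite strand at the same place, carries the same counts. The remainder were miR-5119 (52.9 to 60.2 CPM against 10.9 to 27.8 CPM), miR-184-3p (106 to 152 CPM against 41.2 to 69.2 CPM), miR-1843b-3p (253 to 367 CPM against 118 to 155 CPM), miR-582-3p (35.1 to 52.0 CPM against 15.5 to 25.7 CPM) and miR-101a-5p (17.5 to 25.9 CPM against 7.91 to 12.6 CPM). The other arm of the last, miR-101a-3p, was lower at a far higher level, 4484 to 5805 CPM against 2561 to 3075 CPM (−0.87 ± 0.21).

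Of the 10 most abundant loci, 2 were higher (miR-21a-5p and miR-22-3p), 3 lower (miR-146a-5p, miR-26a-5p and miR-181a-5p) and 5 not called. Over all loci 18.4% were higher and 9.19% lower. The call of miR-22-3p, 42262 to 45656 CPM in sham and 63225 to 71575 CPM at UUO-2 (log2 fold change 0.64 ± 0.13), lay close to the fold threshold and was lost in 13 of 19 settings. The most abundant locus, let-7f-5p on chromosome X, had 124421, 126608, 129699 and 132246 CPM in sham and 102205, 105341, 109742 and 104804 CPM at UUO-2 (−0.28 ± 0.09, adjusted p = 0.0246), below the fold threshold although the groups did not overlap. The others were miR-92a-3p, miR-142a-5p (−0.40 ± 0.13), miR-191-5p (−0.32 ± 0.11) and miR-10a-5p, whose groups overlapped (55877 to 73358 CPM against 44522 to 65095 CPM).

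A shared seed did not go with a shared direction in several families. The 12 let-7 and miR-98 loci with the seed GAGGUAG included 3 lower (let-7e-5p and both loci of let-7c-5p) and 1 higher, let-7i-5p, with 13046, 10620, 13130 and 12245 CPM in sham and 19704, 20464, 20664 and 20198 CPM at UUO-2. That increase (log2 fold change 0.72 ± 0.11, adjusted p = 4.87e-05) fell below the fold threshold or the test in 8 of 19 settings. With both arms counted, the let-7 and miR-98 list had 2 higher and 3 lower of 24 loci (median −0.27), beside 18.4% and 9.19% over all loci. None was higher and 6 were lower without sham 2, and likewise without UUO-2 1 or UUO-2 2. Without sham 3, none was higher and 7 were lower. In these fits the list median was −0.43 to −0.49, beside −0.03 to −0.07 over all loci. In the main fit it was −0.27 beside 0.15.

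Of the 4 loci with the seed CCCUGAG, the 3 of miR-125a-5p and miR-125b-5p were lower, whereas miR-351-5p, encoded on the X chromosome beside miR-322 and miR-503, had 681 to 1136 CPM in sham and 1142 to 1542 CPM at UUO-2 (0.72 ± 0.17, call lost in 6 of 19 settings). Of the 3 members with the seed CAGUGCA, miR-148a-3p was higher, miR-152-3p was lower (108.5 to 124 CPM against 62.4 to 95.2 CPM, −0.60 ± 0.16, call lost in 4 of 19 settings) and miR-148b-3p was below the fold threshold (0.36 ± 0.13). Of the 4 with the seed AAAGUGC, miR-17-5p and miR-20a-5p were higher, and miR-93-5p (0.20 ± 0.15) and miR-106b-5p (0.39 ± 0.26) were not called. These counts stand beside 18.4% higher and 9.19% lower over all loci.

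Of 16 loci of miRNAs known to be induced by toll-like receptors and NF-kB, 7 were higher (both arms of miR-132, miR-212 and miR-21a, and miR-147-3p) and 1, miR-146a-5p, was lower (median log2 fold change 0.98), beside 18.4% higher and 9.19% lower over all loci. These counts were the same without sham 2. The member best known from macrophage activation, miR-155-5p, had 60.2, 156, 149 and 145 CPM in sham and 167, 129, 96.9 and 148 CPM at UUO-2. The groups overlapped, and the log2 fold change was 0.09 ± 0.29 (adjusted p = 0.834), with sham 1 far below the other sham libraries. Without sham 1 the change was −0.33, to be read against a median of −0.02 over all loci in that fit. For the myeloid and haematopoietic miRNAs, the arms miR-142a-3p (957 to 1423 CPM against 1564 to 2030 CPM) and miR-223-5p (148 to 176 CPM against 244 to 307 CPM) were called higher, but each call was lost in 10 of 19 settings. The more abundant arms were not called. Of these, miR-142a-5p was lower without overlap (52163 to 60917 CPM against 39580 to 46178 CPM, −0.40 ± 0.13) but short of the fold threshold. It was called lower in 4 of 19 settings, whereas miR-223-3p had a log2 fold change of 0.13 ± 0.16. None of the 6 loci of miR-511, which lies in the mannose receptor gene Mrc1, miR-378a and miR-33 was called at an adjusted p below 0.05 and a fold above 1.5, with miR-511-3p at 92.6 to 112 CPM in sham and 81.8 to 102 CPM at UUO-2.

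The remaining lists had from none to 3 calls each, to be read beside 18.4% higher and 9.19% lower over all loci. None of the 6 miR-29 loci, the 4 miR-191 and miR-425 loci, the 2 miR-34 loci and the 8 loci of the imprinted Dlk1-Dio3 region that could be tested was called. Of 14 loci of the miR-15 and miR-16 seed family 1 was lower (miR-322-3p), of 13 miR-30 loci 1 was higher and 2 were lower, of 8 loci of the cluster in Clcn5 1 was higher, and of 9 loci of the Hox clusters 1 was higher (miR-615-5p). Of the hypoxia-induced miR-210, the 5p arm had 5.92 to 13.5 CPM in sham and 19.2 to 33.3 CPM at UUO-2 and was called, and the more abundant 3p arm (27.4 to 43.8 CPM against 50.5 to 64.9 CPM) was not (adjusted p = 0.0571). The 5p call was lost in 9 of 19 settings and the 3p arm was called in 3, so the arms are not shown to differ. In the miR-183, miR-96 and miR-182 cluster 1 of 3 loci was higher, miR-182-5p, with 224, 139, 241 and 102 CPM in sham and 274, 413, 252 and 518 CPM at UUO-2, a call that was lost in 6 of 19 settings.

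Markers of other cells that a sort can carry over were counted beside these results. In bulk samples fewer cells of a type and less RNA per cell cannot be told apart. The counts of markers called are to be read beside 18.4% higher and 9.19% lower over all loci. The summed level of the 12 macrophage and myeloid markers was 133177 to 149310 CPM in sham and 79076 to 92314 CPM at UUO-2, of which miR-146a-5p made up 50.7%, and 3 of the 11 tested were higher and 1 lower. The 18 markers of proximal tubule and other epithelium summed to 6357 to 8479 CPM in sham and 4765 to 6520 CPM at UUO-2, with none called of 10 tested, miR-192-5p as the main member (81.9%) and 3 arms, miR-194-1-3p, miR-215-3p and miR-429-5p, at 0 in all 8 libraries. With miR-203 and miR-204 added, 1 of 13 epithelial loci was lower. The 12 mesenchymal and mural markers, of which miR-143-3p made up 95.4%, summed to 7858, 3163, 7373 and 5408 CPM in sham and 8632, 9656, 7690 and 8616 CPM at UUO-2, with 1 of 9 tested higher (miR-214-3p, a call lost in 10 of 19 settings). All 9 had a log2 fold change of 0.43 or more (median 0.66), and 5 were called with library size alone. The 2 endothelial arms of miR-126a summed to 1920, 504, 2506 and 4974 CPM in sham and 1425 to 2402 CPM at UUO-2 and were not called.

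The lymphocyte marker miR-150-5p had 256, 145, 180.1 and 217 CPM in sham and 527, 501, 407 and 763 CPM at UUO-2 (log2 fold change 1.46 ± 0.34, adjusted p = 0.00299), and was higher in all 4 UUO-2 libraries. In contrast miR-342-5p was lower (529 to 813 CPM against 355 to 416 CPM), and the 4 lymphocyte loci summed to 2755 to 3601 CPM in sham and 2285 to 2602 CPM at UUO-2. The erythroid miR-451a had 0.677, 0, 1.83 and 0.259 CPM in sham and 13.8, 13.1, 3.69 and 6.60 CPM at UUO-2 (3.68 ± 0.73). Of the same list, miR-144-3p was too scarce to be tested, with 0 CPM in all 4 sham libraries and 1.70 to 3.99 CPM at UUO-2. The groups overlapped for miR-144-5p (0 to 2.54 CPM against 0.971 to 4.86 CPM). Without the filter 2 of 7 erythroid loci were called higher. The erythroid sum, mostly miR-486a, was 864 to 1608 CPM in sham and 1128 to 1345 CPM at UUO-2. In exact permutation tests of the 6 sums (two-sided, 4 against 4 libraries), the myeloid and the lymphocyte sums had p = 0.0286, the epithelial and the mesenchymal sums 0.0571, the endothelial sum 0.657 and the erythroid sum 0.971, and after adjustment over the 6 none was below 0.0857. The part of such cells in the calls was not tested.

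The arms of a hairpin are cut from the same precursor, and the scaling of a library cancels in their ratio. For an arm whose mature sequence is also made from another locus, the counted ratio depends on how its reads were divided and is not that of a single precursor. Of 131 hairpins with both arms tested, the log2 ratio of 5p to 3p differed between UUO-2 and sham in 24 (18.3%; limma with a trend, adjusted p below 0.05 and a ratio change above 1.5-fold), 11 toward 5p (8.4%) and 13 toward 3p (9.92%). The count was 15 without UUO-2 1 and 17 without sham 2. In 20 of the 24 the less abundant arm gained on the more abundant arm, as it did in 87 of all 131 hairpins (median 0.21 on the log2 scale). In 11 hairpins both arms were called higher, in 8 both lower, and in 1, miR-125b on chromosome 9, they were called in opposite directions. The call of the scarce 3p arm of miR-125b was lost in 10 of 19 settings.

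For that hairpin the 5p arm outnumbered the 3p arm by 280-fold in sham and by 79.3-fold at UUO-2, a change of −1.82 ± 0.21 in the log2 ratio (limma, adjusted p = 2.25e-05). The log2 ratio was 7.63 to 8.42 in the sham libraries and 6.18 to 6.50 in the UUO-2 libraries. For miR-5107 the 5p arm was 4.20 times the 3p arm in sham and 0.922 times at UUO-2 (−2.19 ± 0.34). Its log2 ratio in the UUO-2 libraries was −0.341, −0.192, 0.223 and −0.158, so the 2 arms were about equal there. For miR-142a the 5p arm was 51.0 times the 3p arm in sham and 23.0 times at UUO-2 (−1.15 ± 0.21), for miR-423 it was 3.97 times and 2.33 times (−0.77 ± 0.15), and for let-7f on chromosome 13 it was 781 times and 287 times (−1.44 ± 0.25). For miR-92a on chromosome 14 the 3p arm was 656 times the 5p arm in sham and 234 times at UUO-2 (1.48 ± 0.26). The 5p arms of miR-125b and let-7f and the 3p arm of miR-92a are such multi-locus sequences. The change in the log2 ratio was −0.19 at the other miR-125b hairpin, on chromosome 16, and −0.13 at the other let-7f hairpin, on chromosome X. The 6 hairpins named, those with the smallest p, kept their calls in every alternative in which they could be tested. When both arms had to reach 10 CPM, 15 of 79 hairpins were called.

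**Figure D4:**
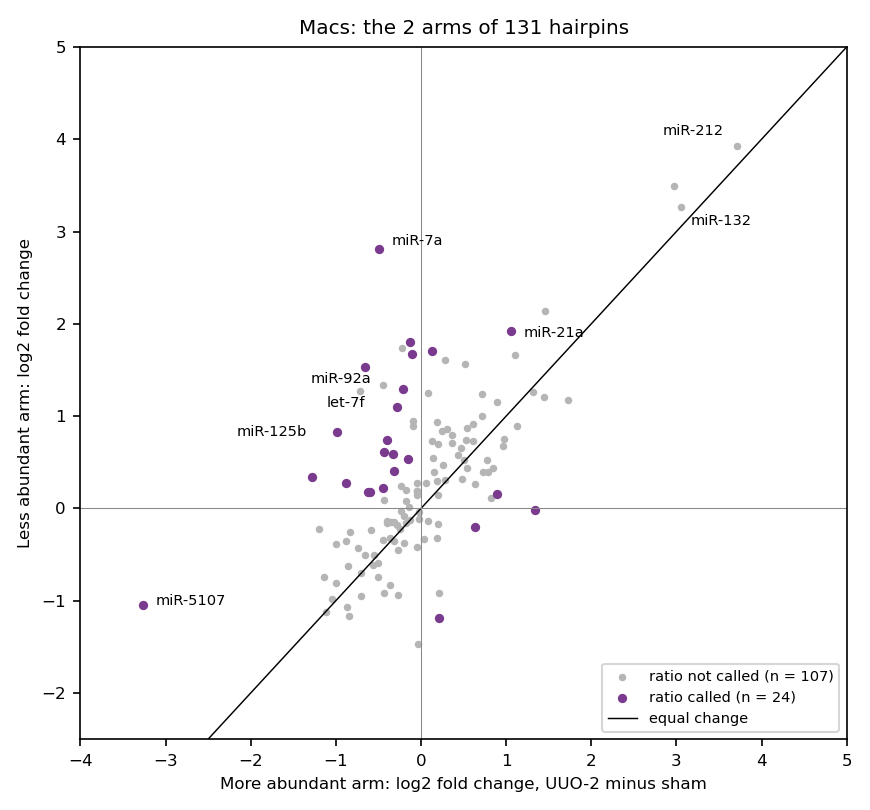
Log2 fold change, UUO-2 minus sham in Macs, of the less abundant arm (y axis) against that of the more abundant arm (x axis) of 131 hairpins, with the line of equal change. The 24 hairpins with a called ratio are in purple, 20 of them above the line, among them miR-125b, miR-92a and miR-21a.

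The change at UUO-2 in Macs was set against that in the other populations in a fit over all 63 libraries. The test was of the change in Macs minus the mean change in ECs, PT cells and PDGFR-β+ cells. A call is therefore a difference from that mean, and the miRNA can have changed in the other populations too. Of 671 loci tested 59 differed (8.79%; edgeR, adjusted p below 0.05 and a difference above 1.5-fold), 16 with a higher (2.38%) and 43 with a lower (6.41%) change in Macs. The median difference over all loci was −0.19, and with library size alone (median 0.17) the split was 27 higher and 15 lower. In this fit the libraries of all populations are scaled together, so log2 fold changes in Macs differ from those above. Libraries of the same mouse are treated as independent in it. With the mouse as a block 64 loci differed, 16 with a higher and 48 with a lower change in Macs. Without the mouse UUO-2 1 or UUO-2 4 the count was 34 (20 higher and 14 lower, and 21 higher and 13 lower), without sham 3 it was 40 (23 higher and 17 lower), and without sham 2 it was 51. The median difference over all loci in these fits was 0.12, 0.08, 0.06 and −0.24, in the same order.

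The increase of miR-148a-3p was larger in Macs than in each other population, with a log2 fold change of 2.78 in Macs, 0.12 in ECs, 0.28 in PT cells and 0.52 in the PDGFR-β+ population (difference from the mean 2.48 ± 0.28, edgeR, adjusted p = 1.95e-09). A higher change in Macs was also called for miR-27b-5p (difference 1.65 ± 0.23), miR-132-3p (1.63 ± 0.31), miR-222-3p (1.23 ± 0.20), miR-301a-3p (1.12 ± 0.25), miR-27b-3p (0.99 ± 0.23) and miR-221-3p (0.93 ± 0.19). The increase of miR-132-3p was also present elsewhere, with a log2 fold change of 1.99 in PT cells (adjusted p = 2.72e-06) and 1.18 in the stromal population (adjusted p = 7.39e-04), against 2.85 in Macs. For miR-147-3p, whose log2 fold change was 3.91 in ECs and 4.35 in Macs, the difference from the mean of the other populations was not called (1.99 ± 1.07, adjusted p = 0.326).

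Among the decreases, those of miR-125a-5p (difference −1.56 ± 0.18), miR-125b-5p (chromosome 9, −1.56 ± 0.21), miR-26a-5p (chromosome 10, −1.13 ± 0.15), miR-99b-5p (−1.17 ± 0.17), let-7e-5p (−1.27 ± 0.22), miR-146a-5p (−1.31 ± 0.23) and miR-181a-5p (chromosome 2, −0.93 ± 0.16) were larger in Macs than the mean of the other populations. The log2 fold change of miR-125a-5p was −1.23 in Macs, 0.06 in ECs, 0.73 in PT cells and 0.19 in the PDGFR-β+ population. A lower change in Macs was called as well where the miRNA rose in the other populations. The log2 fold change of miR-21a-5p was 0.87 in Macs, 2.02 in ECs, 1.72 in PT cells and 3.20 in the PDGFR-β+ population, that of miR-155-5p was −0.10, 1.32, 1.42 and 3.82 in the same order, and that of miR-142a-5p was −0.58, 1.30, 1.04 and 1.86. These 3 miRNAs started from a higher level in Macs than in any other sham population, with miR-142a-5p at 36493 CPM in Macs and 33.8 to 79.8 CPM in the others on the common scale. The calls of miR-21a-5p and miR-181a-5p were each lost in 3 of 12 alternative settings, and that of miR-221-3p in 1.

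**Figure D5:**
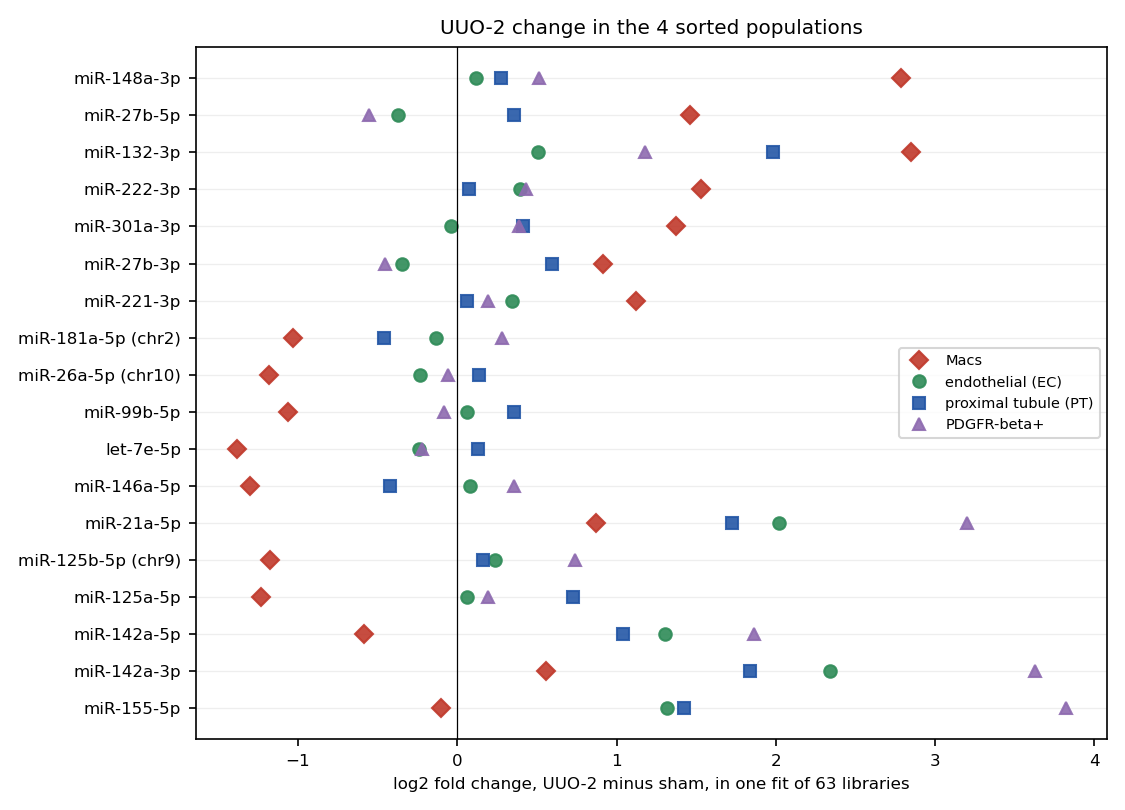
Log2 fold change, UUO-2 minus sham (x axis), of 18 miRNA loci (y axis) in Macs, ECs, PT cells and PDGFR-β+ cells, all from the fit over 63 libraries. For miR-148a-3p Macs lie at 2.78 and the other populations at 0.52 or below, and for miR-155-5p Macs lie at −0.10 and the others at 1.32 or above.

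The later groups give the levels to which these changes went. They share the sham libraries with the comparison above, so each mean is given on its own. The mean level of miR-147-3p was 5.16 CPM in sham, 119.8 CPM at UUO-2, 21.9 CPM at UUO-7 and 46.2 CPM in R-UUO, and that of miR-222-3p was 1690, 5577, 3010 and 2341 CPM in the same order (n = 4 each). These 2 were highest at UUO-2. In contrast miR-148a-3p had means of 206, 1621, 1247 and 1622 CPM, miR-132-3p of 7.28, 63.5, 95.2 and 108 CPM and miR-150-5p of 199.6, 549, 1027 and 598 CPM, which stayed above sham in every later group.

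Among the lower loci, miR-5107-5p had a mean of 646 CPM in sham, 67.1 CPM at UUO-2, 384 CPM at UUO-7 and 282 CPM in R-UUO, and miR-181a-5p (chromosome 2) 53389, 29723, 52986 and 52661 CPM, so both were lowest at UUO-2. The mean of miR-146a-5p was 77913, 35980, 34129 and 47312 CPM and that of miR-125a-5p 11316, 5478, 5098 and 9764 CPM, and these remained low at UUO-7. In the direct test of UUO-7 against UUO-2, 74 of 457 loci were higher (16.2%) and 66 lower (14.4%).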

How the data were processed

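sRNA was isolated from sorted kidney cells, and libraries were prepared by a standard Illumina protocol per the labels and sequenced as paired-end reads of 150 bp. Per the methods and the submitters' processing notes, the authors trimmed reads with Trim Galore 0.4.1 and cutadapt 1.1 and checked them with FastQC. They placed the reads on GRCm38 with ShortStack, a wrapper of Bowtie, and counted them over miRBase 22 loci. The deposited values are raw counts, 1 column per library, with 1 library removed by the authors. How reads of multi-locus names were divided, and whether strand was used, is not given in the sources used here. Opposite-strand loci at the same place carry the same counts. A single column of no sample was not used.

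From the deposited counts, CPM was computed with TMM factors in edgeR 4.0.16 (R 4.3.3). Loci were kept by filterByExpr over the 16 Mac libraries, and the quasi-likelihood contrast of UUO-2 minus sham was taken from a fit of the 4 Mac groups. Loci were called at a Benjamini-Hochberg adjusted p below 0.05 with a fold change above 1.5. The SE is the log2 fold change divided by the root of F. The difference from the other populations was fitted in the same way over 63 libraries, and arm ratios (prior count 2) were tested with limma 3.58.1. DESeq2 1.42.0 was an alternative. The fits were tested on simulated data. Marker sums were compared by an exact permutation test over the 70 divisions of 4 against 4 libraries.

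Loci named were the 10 largest called increases and decreases without overlap at 10 CPM or more, the 10 most abundant loci, members of gene lists, the 6 smallest p of the population difference and of the arm ratio, and shared seeds. Loci with the same counts were named once. The members and lists were chosen with earlier results of these data known. Same-numbered sham and UUO-2 libraries are different mice and did not deviate together (r from −0.07 to 0.05), so the numbers do not pair them. No 2 replicate libraries had the same counts (chi-square per degree of freedom 31.3 to 107 over 12 pairs). Alternatives covered scaling, filtering, the test, the libraries fitted, multi-locus names and each library left out.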

Additional observations from a re-analysis of the deposited data

Results flagged for a closer look

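In 18 of 210 groups of 4 libraries examined, a single library lay far from the other 3 by Dixon's criterion applied to log2 CPM, which chance alone gives in about 1 of 20 groups. In the library sham 2 these were miR-191-5p at 42584 CPM, miR-27b-3p at 8656 CPM, miR-17-5p at 185 CPM, let-7g-5p at 7946 CPM, miR-30a-3p at 230.5 CPM and miR-1843b-5p at 197 CPM. In sham 1 it was miR-155-5p, at 60.2 CPM, and in sham 3 they were miR-28a-3p at 68.3 CPM and miR-296-3p at 0.365 CPM. In UUO-2 3 they were miR-19a-3p at 133 CPM, miR-106b-5p at 222 CPM, miR-328-3p at 681 CPM and miR-1843b-5p at 154 CPM. In UUO-2 4 they were miR-27a-3p at 3533 CPM, miR-29a-3p at 3337 CPM, miR-26b-5p at 7068 CPM and miR-467c-5p at 7.58 CPM, and in UUO-2 1 it was miR-210-5p at 33.3 CPM.

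The change at UUO-2 in Macs differed from the mean change in the other 3 populations, in the edgeR test of that difference, for the following loci (log2). It was higher in Macs for miR-148a-3p (2.48), miR-27b-5p (1.65), miR-132-3p (1.63), miR-222-3p (1.23), miR-301a-3p (1.12), miR-27b-3p (0.99) and miR-221-3p (0.93). It was lower in Macs for miR-155-5p (−2.29), miR-142a-3p (−2.04), miR-142a-5p (−1.98), miR-125a-5p (−1.56), miR-125b-5p on chromosome 9 (−1.56) and on chromosome 16 (−1.52), miR-21a-5p (−1.44), miR-146a-5p (−1.31), let-7e-5p (−1.27), miR-99b-5p (−1.17), miR-26a-5p on chromosome 10 (−1.13) and on chromosome 9 (−1.12) and miR-181a-5p on chromosome 2 (−0.93). The call of miR-142a-3p was lost in 4 of 12 alternative settings, with library size alone and without sham 3, UUO-2 1 or UUO-2 4, and that of miR-221-3p in 1, without the filter. For miR-21a-5p the level rose in Macs too, by less than in each other population.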

How the results depend on the processing

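Of 131 named results, 74 kept their direction and their side of the threshold under all alternatives, and no locus called in the comparison of UUO-2 with sham was called in the opposite direction under any. TMMwsp and upper-quartile scaling were chosen after seeing the data. The count of 126 loci was 59 when tested against a fold of 1.5 and 101 to 123 when each library was left out. The 59 loci that differed from the other populations became 34 to 63, and the 24 hairpins 15 to 26, with 15 when both arms had to reach 10 CPM. With the replicate number as a block the counts were 118 loci and 21 hairpins for UUO-2 against sham. The numbers do not pair these mice, and no library correlated best with its own number except number 3. In the difference from the other populations the block was the mouse from which the populations were sorted, and 64 loci were called.

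The directions that turned belonged to loci that were not called, and the cause was not tested. With library size alone the log2 fold change was 0.015 for miR-10a-5p, 0.16 for miR-130a-3p, 0.066 for miR-23a-3p, 0.026 for miR-511-3p and 0.020 for miR-126a-3p, which was 0.078 with the replicate block. With TMMwsp it was 0.016 for miR-130a-3p. With upper-quartile factors it was −0.20 for miR-155-5p, −0.050 for miR-93-5p, −0.027 for miR-100-5p, −0.0043 for miR-181b-5p (chromosome 2) and −0.13 for miR-223-3p. With libraries left out in turn it ranged from −0.33 to 0.056 for miR-155-5p, −0.013 to 0.22 for miR-27a-3p, −0.029 to 0.16 for miR-93-5p, −0.39 to 0.94 for miR-100-5p, −0.086 to 0.064 for miR-223-3p, −0.94 to 0.077 for miR-126a-5p and −0.65 to 0.28 for miR-126a-3p. Fold changes of loci with few sham reads, such as miR-296-3p and miR-212-5p, are limited by depth.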
